A study of Rattus norvegicus with 24 samples.

Results

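Voltage-gated calcium and sodium channels open on depolarization and set how striatal neurons fire and release transmitter. The 40 genes described here were those whose first symbol in the deposited annotation began with Cacna, Cacnb, Cacng or Scn followed by a digit, out of 68842 transcript clusters on the array. Each of the 40 symbols had 1 cluster, so none had to be chosen among several. RNA from the dorsal striatum of 24 male Sprague Dawley rats had been hybridized to a transcriptome microarray, 1 for each animal. There were 6 control rats with saline self-administration (CT), 6 shock-resistant (SR) rats that kept taking methamphetamine (METH) when lever presses were punished by footshocks, and 6 shock-sensitive (SS) rats that cut their METH intake. A further 3 saline rats were yoked to SR rats (YSR) and 3 to SS rats (YSS), and received non-contingent shocks whenever their partners were shocked. All rats had been withdrawn from METH or saline for about a month and had been tested for cue-induced lever pressing the day before tissue was taken. Their age is not given in the sources used here, and rats had been selected for arrays on RNA quality. The yoked groups are small, and shock and METH cannot be told apart in SR or SS against CT. Shocks followed the rat's own lever presses in SR and SS but not in yoked rats. METH and this contingency cannot be told apart in SR against YSR or SS against YSS.

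The pore of a calcium channel is formed by an alpha1 subunit (Cacna1 genes), which sits with a cytoplasmic beta subunit (Cacnb) and an extracellular alpha2-delta subunit (Cacna2d) that bring it to the membrane. Cacng genes were named as gamma subunits, but most of those expressed in brain encode transmembrane AMPA receptor regulatory proteins (TARPs), which traffic and gate AMPA-type glutamate receptors. Sodium channels pair a pore subunit with beta subunits, which anchor it and tune its gating. In the striatum, medium spiny neurons are the principal cells, and their L-type calcium channels and sodium channels shape the transitions between quiet and firing states. Among the sodium beta subunits, Scn4b is known for its high level in these neurons.

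Expression was judged against bioB, a spiked bacterial control whose CT mean was a log2 signal of 9.27 (n = 6). In CT rats 26 of the 40 channel genes lay above it and 14 under it, while 14.2% of all 68842 clusters (9755) lay above. Array medians ran from 5.11 to 5.32 and pairs of arrays correlated at 0.988 to 0.9963 over all clusters. The defining markers of the tissue were present, with 10 of 11 medium spiny neuron markers above bioB, among them Drd1, Drd2, Adora2a and Ppp1r1b. Of markers of neighbouring tissue, 4 of 12 cortical pyramidal (Slc17a7, Rorb, Lamp5 and Nrgn, the last also expressed by striatal neurons) and 1 of 12 choroid plexus markers (Ttr) were above it in CT rats. The choroid plexus score, the mean log2 signal of the 12 markers, split the arrays and lay at 5.73 to 10.89 in CT, 5.30 to 9.71 in SR and 5.90 to 10.38 in SS rats. It was 10.60, 11.32 and 6.10 in YSR replicates 1 to 3 and 6.12, 5.55 and 8.19 in YSS replicates 1 to 3. The choroid plexus gene Kl was above bioB on 9 arrays (1 CT, 2 SR, 3 SS, 2 YSR and 1 YSS). Some counts and differences are also given without these high-Kl arrays. The differences of Scn9a, Scn1a, Cacna2d2 and Cacng6 are given only with them. The files and labels name no scan or hybridization batch.

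The pore subunits of calcium channels divided by class. Among L-type genes, Cacna1c, the main L-type pore of neurons and heart, was above bioB at 10.03 ± 0.25 (SD, n = 6) in CT rats, and Cacna1d, which encodes an L-type pore that opens at more negative voltages, was just under it at 8.85 ± 0.21 (SD, n = 6). The retinal gene Cacna1f (4.62) and the skeletal muscle gene Cacna1s (4.84) were far under it. Cacna1c was 10.04 ± 0.31 in SR, 10.19 ± 0.33 in SS, 9.86 ± 0.18 in YSR and 10.21 ± 0.18 in YSS rats, so that its 5 group means lay within the spread of single groups. Cacna1d was 8.91 ± 0.22 in SR, 8.98 ± 0.14 in SS, 8.79 ± 0.34 in YSR and 9.17 ± 0.36 in YSS rats. All 3 pores of the presynaptic channels were above bioB. Cacna1a, the P/Q-type pore of fast transmitter release, was 10.85 ± 0.21 in CT, 10.82 ± 0.24 in SR, 10.95 ± 0.21 in SS, 10.60 ± 0.30 in YSR and 10.85 ± 0.29 in YSS rats. The N-type gene Cacna1b had a CT mean of 9.74 and the R-type gene Cacna1e one of 12.59. Of the T-type genes, which carry low-threshold currents, Cacna1h (9.51) and Cacna1i (10.56) were above bioB and Cacna1g (7.17) was under it.

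Most beta, alpha2-delta and TARP genes were above bioB. The CT means of the beta subunit genes were 11.01 for Cacnb1, 10.20 for Cacnb2, 11.28 for Cacnb3 and 12.20 for Cacnb4. Cacnb4, whose loss causes ataxia and seizures in mice, was 12.20 ± 0.11 in CT, 12.10 ± 0.37 in SR, 12.26 ± 0.11 in SS, 12.15 ± 0.21 in YSR and 12.21 ± 0.20 in YSS rats, the narrowest set of group means among the genes given by group here. Of the alpha2-delta genes, Cacna2d1 (11.71) and Cacna2d2 (10.29), which encode the proteins that gabapentin binds, and Cacna2d3 (13.84) were above bioB, and Cacna2d4 (4.23), a gene of the retina, was not. The TARP genes Cacng2 (11.01), Cacng3 (14.30), Cacng4 (13.17), Cacng7 (12.42) and Cacng8 (9.57) were above bioB, and Cacng5 (7.89) was under it. Cacng2, which encodes stargazin, was 11.01 ± 0.38 in CT, 11.23 ± 0.42 in SR, 11.11 ± 0.26 in SS, 10.78 ± 0.59 in YSR and 11.13 ± 0.11 in YSS rats. Its close relative Cacng3 was 14.30 ± 0.43 in CT, 14.38 ± 0.57 in SR, 14.45 ± 0.28 in SS, 14.06 ± 0.53 in YSR and 14.50 ± 0.17 in YSS rats. For both TARP genes the groups overlapped. The skeletal muscle gamma gene Cacng1 (5.67) and its relative Cacng6 (5.10) were under bioB.

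Sodium channel genes separated by the tissue they are known from. The 4 pore genes of the brain were above bioB, with CT means of 12.20 for Scn1a, 13.38 for Scn2a (Scn2a1 in the annotation), 11.79 for Scn3a and 11.52 for Scn8a, and so were the beta subunit genes Scn2b (10.42), Scn3b (13.48) and Scn4b (13.60). The pore genes known from muscle, peripheral nerve and glia, among them Scn4a (5.46), Scn7a (5.35), Scn9a (6.17), Scn10a (4.17) and Scn11a (3.87), were all under it. Scn2a was 13.38 ± 0.18 in CT, 13.48 ± 0.34 in SR, 13.50 ± 0.08 in SS, 13.28 ± 0.39 in YSR and 13.62 ± 0.17 in YSS rats. Scn8a, the pore that gathers at the axon initial segment, was 11.52 ± 0.27 in CT, 11.55 ± 0.28 in SR, 11.76 ± 0.14 in SS, 11.35 ± 0.35 in YSR and 11.75 ± 0.21 in YSS rats. Neither of these genes had an unadjusted limma p under 0.05 in any of the 8 comparisons. Many of the 40 genes are neighbours in the deposited annotation, whose genome build is not named. Scn2b and Scn4b lie 9.7 kb apart on chromosome 8, Cacng6, Cacng8 and Cacng7 lie in a row on chromosome 1 with gaps of 9.1 and 25.1 kb, and Cacng4 and Cacng5 lie 106.8 kb apart on chromosome 10. Whether probes of these related genes bind each other's transcripts was not tested.

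**Figure D1:**
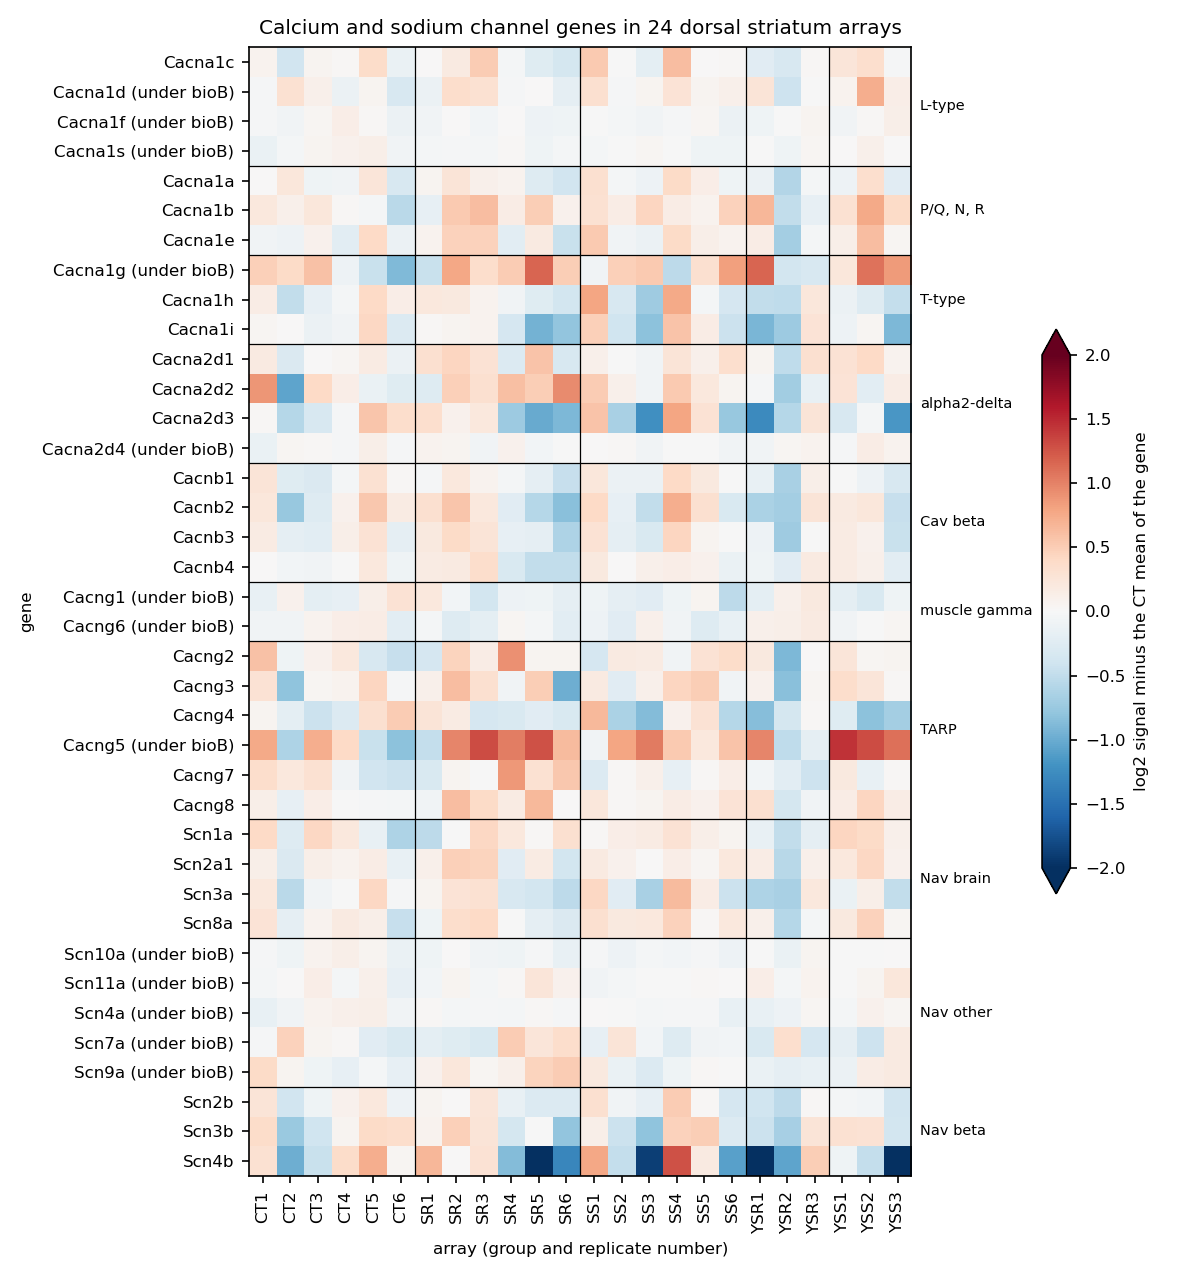
Log2 signal of 38 of the 40 channel genes (rows, by role) on each of the 24 arrays (columns, by group), as the difference from the gene's CT mean, with colours ending at 2 log2 units. Scn4b and Cacna2d3 swing within every group, and YSR replicate 2 is blue (lower than the CT mean) for most genes above bioB.

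The largest variation in this gene set lay between rats of the same group. Scn4b had the widest within-group spread of the 40 genes, with a standard deviation of 1.03 log2 units, followed by Cacna2d3 at 0.65. Scn4b ranged from 11.42 in YSR replicate 1 to 14.87 in SS replicate 4. Its lowest, median and highest signals were 12.62, 13.77 and 14.32 in CT, 11.50, 13.17 and 14.25 in SR and 11.71, 13.46 and 14.87 in SS rats. It was 11.42, 12.54 and 14.08 in YSR replicates 1 to 3 and 13.51, 13.12 and 11.51 in YSS replicates 1 to 3. Each group thus held both high and low arrays. The group means were 13.60 ± 0.61 in CT, 13.04 ± 1.05 in SR, 13.40 ± 1.18 in SS, 12.68 ± 1.34 in YSR and 12.71 ± 1.06 in YSS rats, and SR rats were 0.55 below CT rats (standard error 0.54, exact permutation p = 0.279). Cacna2d3 had lowest, median and highest signals of 13.26, 13.84 and 14.39 in CT, 12.82, 13.51 and 14.18 in SR and 12.62, 13.66 and 14.63 in SS rats. Its group means were 13.84 ± 0.41 in CT, 13.50 ± 0.61 in SR, 13.68 ± 0.82 in SS, 13.31 ± 0.77 in YSR and 13.33 ± 0.58 in YSS rats. Both genes had their lowest array in YSR replicate 1 and their highest in SS replicate 4.

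This variation ran in parallel with the markers of medium spiny neurons. The mean log2 signal of the 11 markers (the MSN score, which contains no channel gene) ran from 12.48 in YSS replicate 3 to 14.39 in SS replicate 4. With group means removed from both, Scn4b correlated with it at r = 0.97 (Spearman's rho = 0.96, permutation p = 1e-05 for each, the smallest that 100000 permutations can give) over 24 arrays, with a slope of 1.63 log2 units per unit of the score. The same correlation was 0.95 within CT, 0.98 within SR and 0.97 within SS rats, and 0.97 without the 2 arrays farthest from the median score, SS replicate 3 and CT replicate 2. Cacna2d3 followed at r = 0.96 (rho = 0.94) and Cacnb2, a beta subunit gene, at r = 0.95 (rho = 0.90). Of the 52 pairs of 26 genes and 2 scores, 15 pairs with the MSN score passed a Benjamini-Hochberg adjusted permutation p of 0.05 by Pearson's r, 14 of them positive and Cacng7 negative (r = -0.57). All 15 kept their sign without the 2 farthest arrays, and 12 members passed when the 9 arrays with Kl above bioB were left out. In bulk tissue, fewer cells of a type and less RNA per cell cannot be told apart, and the part that dissection played in these values was not tested.

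The genes with r over 0.7 came from most roles. They were the pore genes Cacna1c (0.77), Cacna1h (0.86), Cacna1i (0.88) and Scn3a (0.91), the auxiliary genes Cacna2d3, Cacnb1 (0.76), Cacnb2, Cacnb3 (0.76) and Cacnb4 (0.72), the TARP gene Cacng4 (0.74) and the sodium beta genes Scn2b (0.87), Scn3b (0.86) and Scn4b. These are 13 of the 26 genes above bioB, whose median r was 0.63, against 5.79% of all 9755 clusters above bioB, whose median was 0.06. Other neuronal channel genes stood apart. Scn1a (r = -0.03), Cacng8 (-0.05), Cacng2 (-0.15) and Cacna2d2 (0.15) had correlations with the MSN score near 0. The presynaptic pore genes Cacna1a (0.50) and Cacna1e (0.45) and the brain sodium pore genes Scn2a (0.39) and Scn8a (0.35) lay between, and none of these 4 passed the adjusted test.

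**Figure D2:**
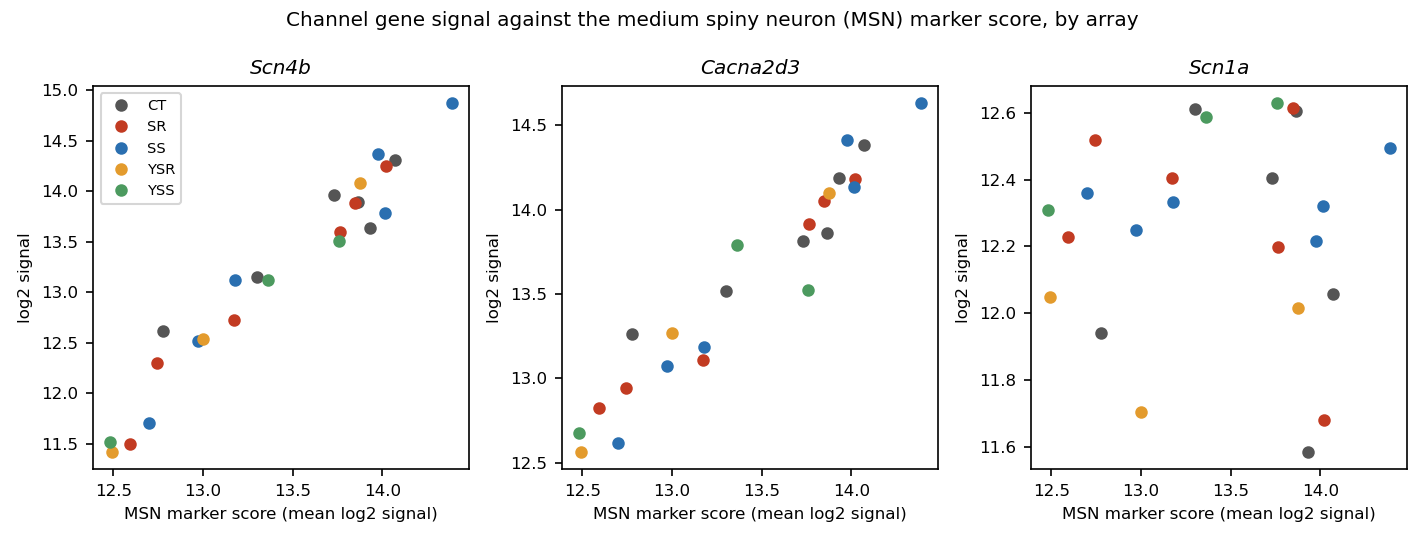
Log2 signal of Scn4b, Cacna2d3 and Scn1a (y axes) against the MSN score, the mean log2 signal of 11 medium spiny neuron markers (x axes), with 1 point per array and colours for the 5 groups. Scn4b and Cacna2d3 climb with the score in all 5 groups (r = 0.97 and 0.96 with group means removed), while Scn1a does not (r = -0.03).

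The promoters of the 3 genes that followed the MSN score most closely are shown with that of Cacng5, a gene under bioB whose differences between groups are described below, so that the regulatory sequence can be read beside the values. They are the 250 bases before the annotated start, 5′ to 3′ on the gene's strand, from RefSeq on GRCr8, a build whose coordinates are not those of the deposited annotation. Capitals mark GC boxes (GGGCGG, on either strand) and E-boxes of the form CAGCTG, which reads the same on both strands, and GC boxes may overlap each other.
Scn4b, chr8:54343623-54343872, strand +: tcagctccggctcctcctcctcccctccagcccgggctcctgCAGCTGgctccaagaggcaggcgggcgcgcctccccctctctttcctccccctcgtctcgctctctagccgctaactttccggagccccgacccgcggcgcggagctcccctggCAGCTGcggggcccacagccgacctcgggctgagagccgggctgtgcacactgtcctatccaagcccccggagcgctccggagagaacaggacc
Cacna2d3, chr16:4918900-4919149, strand -: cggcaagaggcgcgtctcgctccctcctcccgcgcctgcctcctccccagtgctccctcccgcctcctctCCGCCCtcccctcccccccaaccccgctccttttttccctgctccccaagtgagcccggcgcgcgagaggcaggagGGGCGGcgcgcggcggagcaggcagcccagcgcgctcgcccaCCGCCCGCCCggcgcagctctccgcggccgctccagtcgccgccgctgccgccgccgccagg
Cacnb2, chr17:82472965-82473214, strand +: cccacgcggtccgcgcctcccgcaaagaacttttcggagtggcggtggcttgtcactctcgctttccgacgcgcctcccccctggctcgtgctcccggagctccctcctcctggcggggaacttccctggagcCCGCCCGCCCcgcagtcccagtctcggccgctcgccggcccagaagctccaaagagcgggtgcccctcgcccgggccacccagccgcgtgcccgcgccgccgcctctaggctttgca
Cacng5, chr10:93336668-93336917, strand -: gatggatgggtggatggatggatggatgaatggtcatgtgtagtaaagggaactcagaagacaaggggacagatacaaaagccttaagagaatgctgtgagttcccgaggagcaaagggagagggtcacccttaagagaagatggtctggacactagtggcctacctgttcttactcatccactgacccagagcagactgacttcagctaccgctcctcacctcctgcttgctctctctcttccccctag
RefSeq promoters were matched for 27 of the 40 genes, with 30 windows. A GC box was found for 13 of the 27 genes and in 30.5% of 33469 promoters of the same length, and CAGCTG for 7 of the 27 and in 12%. TATAAA, the TATA box, was found for 2 of the 27 (Cacna1s and Cacng2) and in 12.9% of promoters, and TGACGTCA, the cyclic AMP response element, for 0 of the 27 and in 1.59%, each on either strand. The Cacna2d3 window has 78.8% G and C and the Scn4b window 71.6%, while the Cacng5 window has 51.2% and no match to any of the 4 motifs. The median window had 63.0% for the channel genes and 51.2% for all promoters. Cacnb2 has a second annotated window, which held no match. A match is only a run of letters, and no factor was measured here.

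Fewer channel genes ran in parallel with the cortical pyramidal score, the mean of 12 markers that include Slc17a7 and Tbr1. Of the 26 genes, 7 passed the adjusted permutation test, 3 positive and 4 negative. Cacna1b (r = 0.72, permutation p = 0.00033) and Cacng2 (0.58, permutation p = 0.0102) were among those with more signal where the score was high, and Cacng4 (-0.73, permutation p = 0.00126) among those with less. The negative ones also included Cacna1h (-0.61), Cacna2d3 (-0.60) and Scn4b (-0.52). These 4 negative genes were also among those that followed the MSN score, and the 2 scores themselves correlated at r = -0.54 with group means removed. The pattern was uneven between groups. Cacna1h had r = -0.67 within CT and -0.95 within SS rats but 0.47 within SR rats, and 0 of the 26 passed when the 9 arrays with Kl above bioB were left out. The 14 genes under bioB, added after the values were seen, included Cacna1g, the T-type gene of thalamic and other burst-firing neurons (r = 0.81 with the cortical and -0.69 with the MSN score) and Cacng5 (r = 0.65 with the cortical score).

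**Figure D3:**
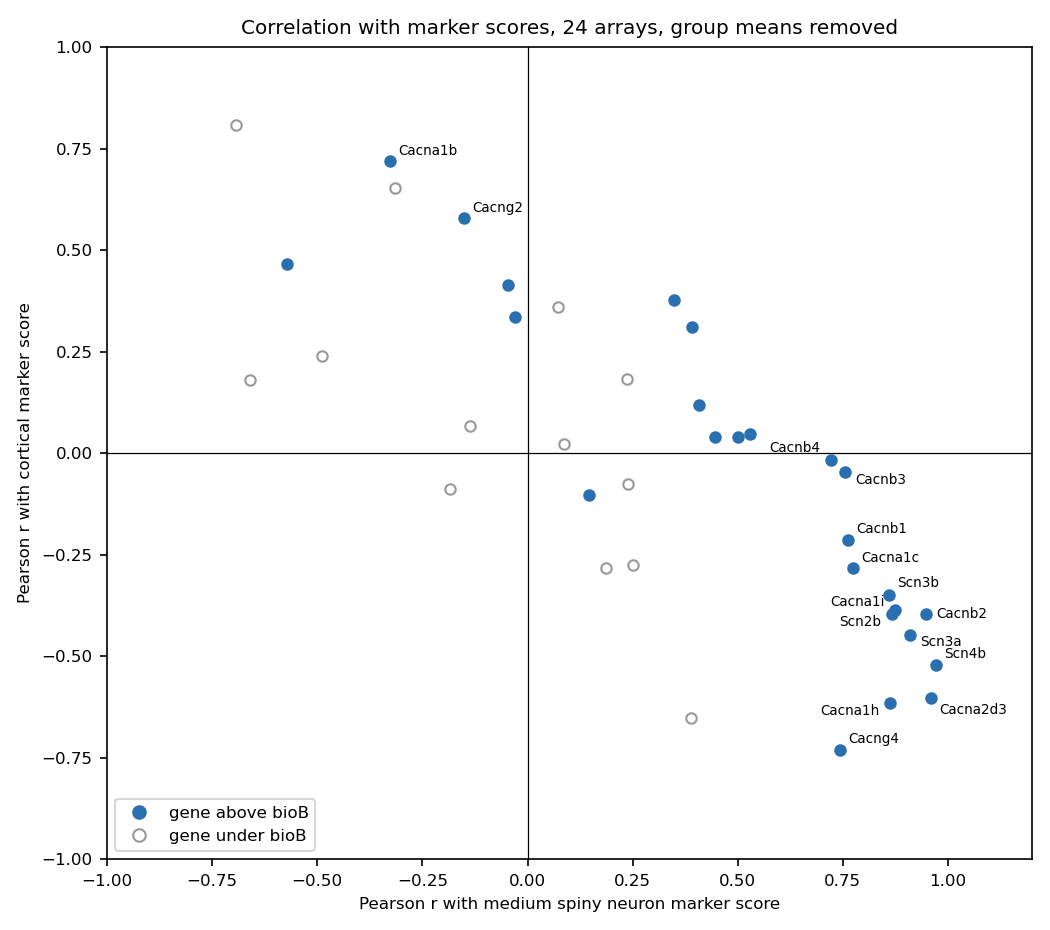
Pearson correlation of 38 of the 40 channel genes with the MSN score (x axis) and with the cortical pyramidal score (y axis) over 24 arrays, with group means removed. Filled points are genes above bioB and open points genes under it, and 13 filled points lie at r over 0.7 on the x axis.

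The first comparison asked how METH rats that resisted punishment differed from saline controls. The criterion used here was an unadjusted p under 0.05 with at least 1.7-fold, the study's limits without its further requirement of a CT mean above bioB. In SR against CT, Cacng5 was past both limits, as was 0.106% of all 68842 clusters. Its CT mean of 7.89 is under bioB, so it does not meet the study's full criterion in any comparison, and 0 of the 26 genes above bioB met it in SR against CT. Cacng5, a TARP gene at chr10:96122240-96166584 of the deposited annotation, had lowest, median and highest signals of 7.06, 7.87 and 8.64 in CT, 7.41, 8.88 and 9.19 in SR and 7.82, 8.44 and 8.93 in SS rats. It was 8.86, 7.37 and 7.71 in YSR replicates 1 to 3 and 9.34, 9.19 and 8.98 in YSS replicates 1 to 3. Of the SR arrays 4 of 6 lay above every CT array, 1 (SR replicate 1) lay in the lower part of the CT range, and only YSS replicate 1 reached the bioB level. SR rats were higher than CT rats by 0.79 (standard error 0.32, limma p = 0.0209, adjusted p = 0.86, exact permutation p = 0.0714). The criterion was lost when CT replicate 2 (0.67), 5 (0.70) or 6 (0.62) or SR replicate 2 (0.75), 3 (0.69), 4 (0.74) or 5 (0.69) was left out. With the 9 high-Kl arrays dropped the difference was 0.98. Cacng5 was 8.40 ± 0.40 in SS rats, and SS against CT (exact permutation p = 0.149) and SR against SS (exact permutation p = 0.403) did not pass.

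Unadjusted p-values under 0.05 were given to 4 of the 40 genes in SR against CT, all higher in SR rats, against 5.41% of all clusters (1.72% higher). They included Cacng5, Scn9a and Cacng8. Interneuron markers had a higher mean in SR rats for 11 of 11 (2 at an unadjusted p under 0.05). Their score was 7.81 to 8.99 in SR and 7.58 to 8.72 in CT rats. Medium spiny neuron markers were lower for 9 of 11 (median -0.37), with 1 higher at an unadjusted p under 0.05. Oligodendrocyte markers were lower for 9 of 9 (median -0.15) and blood and vessel markers for 6 of 7 (median -0.38). Cortical pyramidal markers, whose score Cacng5 followed, were higher in SR rats for 7 of 12 (0 at an unadjusted p under 0.05, median 0.19). That score was 8.38 to 9.71 in SR and 7.86 to 9.57 in CT rats. The part of these lists in the values was not tested. Cacng8, a TARP gene known for hippocampal AMPA receptors, was 9.57 ± 0.11 in CT, 9.87 ± 0.30 in SR, 9.71 ± 0.10 in SS, 9.54 ± 0.34 in YSR and 9.82 ± 0.16 in YSS rats, and SR rats exceeded CT rats by 0.29 (standard error 0.12).

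Scn9a, the pore gene of pain-sensing peripheral neurons (chr3:52583951-52664209), gave the second smallest p of the set. It had lowest, median and highest signals of 6.01, 6.11 and 6.56 in CT, 6.21, 6.33 and 6.68 in SR and 5.90, 6.12 and 6.36 in SS rats. It was 6.04, 5.995 and 6.02 in YSR replicates 1 to 3 and 6.06, 6.32 and 6.35 in YSS replicates 1 to 3. All 6 SR arrays lay above all 3 YSR arrays, and the SR range overlapped those of CT, SS and YSS rats. SR rats were higher by 0.39 than YSR rats (standard error 0.12, exact permutation p = 0.0238), by 0.24 than CT rats (exact permutation p = 0.0779) and by 0.29 than SS rats (exact permutation p = 0.0195). In SR against SS, Scn9a was among the 2 of 40 genes with an unadjusted p under 0.05, both higher in SR rats, against 3.56% of all clusters (1.39% higher). Groups did not overlap in SR against CT for 0 of the 40 genes (0.167% of all clusters), in SS against CT for 0 (0.225%) and in SR against SS for 0 (0.166%).

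SS rats did not stand apart from CT rats in any of these genes by the limma fit, in which 0 of the 40 had an unadjusted p under 0.05 in SS against CT, against 5.17% of all clusters. The criterion was met by 0 of the 40 in SS against CT (0.0305% of all clusters), by 0 in SR against SS (0.0639%) and by 0 in SS against YSS (0.135%), where 0 had an unadjusted p under 0.05 (5.70% of all clusters). In SS against YSS, 2 of the 40 genes did not overlap (2.68% of all clusters), Cacng5 with all 6 SS arrays under the YSS arrays (-0.77, exact permutation p = 0.0357) and Scn10a. The 9 high-Kl arrays were also dropped, a setting tried only once the values had been seen, which left 4 SR and 3 SS rats. Differences between these are given as effect sizes only. The fit leaves 1 YSR array, and the share of all clusters past the limits was not counted. Among the larger differences, Scn4b (-1.415) and Cacna2d3 (-0.92) were lower in SR and Cacna1g (0.80) and Cacng5 (0.92) higher. Smaller ones included Cacna1i (-0.69), Cacna1h (-0.52) and Cacng4 (-0.52), lower in SR rats, and Cacng8 (0.29), higher. The remaining SS arrays, replicates 1, 4 and 5, had MSN scores of 13.98, 14.39 and 14.02, and the remaining SR arrays, replicates 2 to 5, scores of 13.77, 13.85, 13.17 and 12.59. The part of that score in these differences was not tested.

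**Figure D4:**
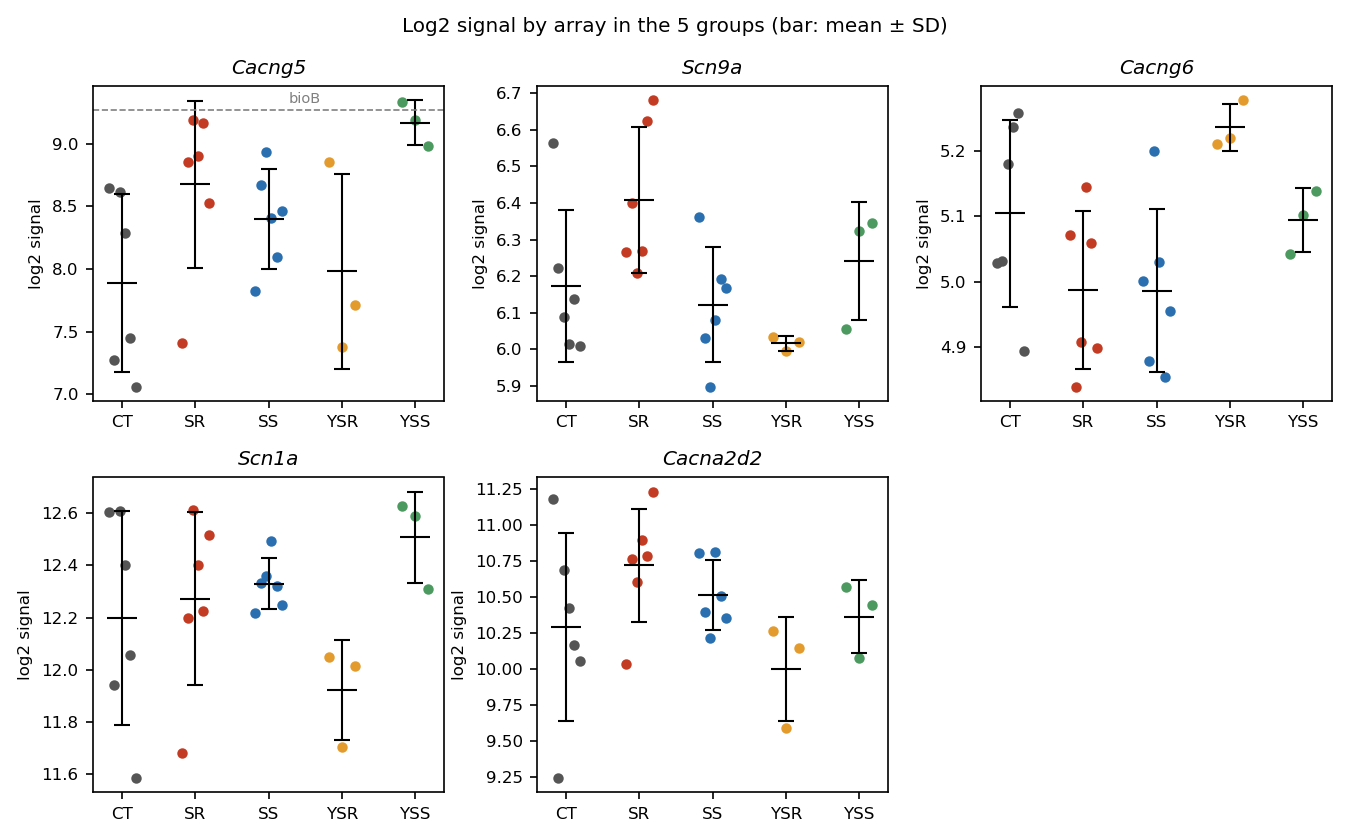
Log2 signal by array (points) with the group mean and SD (bars) in the 5 groups for Cacng5, Scn9a, Cacng6, Scn1a and Cacna2d2. The dashed line marks bioB in the Cacng5 panel, where only 1 YSS array is above it, and the y axes differ and do not start at 0.

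The comparison of YSS with CT rats asked what non-contingent shocks, fewer than YSR rats received, did without drug. Cacng5, under bioB in CT rats, was again past both limits, as was 0.359% of all clusters, with all 3 YSS arrays above all 6 CT arrays. The difference was 1.28 (standard error 0.39, limma p = 0.00319, adjusted p = 0.95, exact permutation p = 0.0238). It stayed past both limits whichever single array was left out, with differences from 1.12 to 1.43, and with the 9 high-Kl arrays dropped it was 1.21. The cortical pyramidal score moved with it, at 9.58 to 9.90 in YSS against 7.86 to 9.57 in CT rats, with 10 of 12 markers higher in YSS rats and 1 at an unadjusted p under 0.05. Blood and vessel markers were lower in YSS rats for 7 of 7 (4 at an unadjusted p under 0.05), with a score of 9.37 to 9.57 against 9.22 to 10.98 in CT rats. Oligodendrocyte markers were lower for 9 of 9 (2 at an unadjusted p under 0.05), with a score of 11.76 to 13.44 against 13.03 to 13.71. Astrocyte markers were lower for 7 of 8 (2 at an unadjusted p under 0.05), microglia markers for 8 of 8 (0) and medium spiny neuron markers for 10 of 11 (0). The part of these lists in the result was not tested. Unadjusted p-values under 0.05 went to 3 of the 40 genes (5.16% of all clusters), the others being Cacna1b, the N-type pore gene, and Cacng4. Cacna1b was 9.74 ± 0.28 in CT, 10.01 ± 0.31 in SR, 9.99 ± 0.16 in SS, 9.74 ± 0.60 in YSR and 10.22 ± 0.24 in YSS rats, and was 0.48 higher in YSS than in CT rats (standard error 0.21). Cacng4, the TARP gene beside Cacng5 on chromosome 10, went the other way, at 13.17 ± 0.36 in CT, 13.04 ± 0.26 in SR, 12.99 ± 0.60 in SS, 12.77 ± 0.44 in YSR and 12.59 ± 0.30 in YSS rats, a difference of -0.58 (standard error 0.28). Groups did not overlap for 3 of the 40 genes in this comparison (Cacng5, Cacna1b and Cacng8), against 2.16% of all clusters.

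The 2 yoked groups, which differ in the number of shocks, were set against each other with 3 arrays each, where an exact permutation test cannot give a p under 0.1. Cacng5 was past both limits, as was 0.601% of all clusters, and was lower in YSR than in YSS rats by 1.19 (limma difference -1.19, standard error 0.45, p = 0.0145, adjusted p = 0.82, exact permutation p = 0.1). This was lost without YSR replicate 2 (-0.89) or YSR replicate 3 (-1.05). Scn1a, the sodium channel pore gene of fast-spiking and other neurons (chr3:52388812-52533370), had lowest, median and highest signals of 11.58, 12.23 and 12.61 in CT, 11.68, 12.31 and 12.61 in SR and 12.22, 12.33 and 12.49 in SS rats. It was 12.05, 11.70 and 12.02 in YSR replicates 1 to 3 and 12.63, 12.59 and 12.31 in YSS replicates 1 to 3. All YSR arrays lay under all YSS arrays, by 0.59 on average (limma difference -0.59, standard error 0.22, p = 0.0149, exact permutation p = 0.1), while both yoked groups lay within the CT range but for YSS replicate 1. Cacng5 and Scn1a were the 2 of 40 genes with an unadjusted p under 0.05, against 6.05% of all clusters. Marker lists also differed between the yoked groups. Interneuron markers were lower in YSR rats for 10 of 11 (2 at an unadjusted p under 0.05), with a score of 7.55 to 8.56 against 8.07 to 8.55 in YSS rats. Choroid plexus markers were higher in YSR rats for 12 of 12 (1 at an unadjusted p under 0.05, median 2.80) and oligodendrocyte markers for 9 of 9 (0, median 0.63). Blood and vessel markers were higher for 6 of 7 (3, median 0.38) and microglia markers for 8 of 8 (1, median 0.38). Cortical pyramidal markers were lower in YSR rats for 10 of 12 (0, median -0.51). Their part in the 2 differences was not tested. Groups did not overlap for 4 of the 40 genes, which were Cacng5, Scn1a, Scn9a and Cacng6, against 9.35% of all clusters.

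YSR against CT had 0 of the 40 genes at an unadjusted p under 0.05 (4.13% of all clusters), 0 at the criterion (0.142%) and 0 whose groups did not overlap (1.71%). The direction was nevertheless one-sided, by a count that was added after the values were seen. Of the 26 genes above bioB, 25 had a lower mean in YSR than in CT rats, with a median difference of -0.24, where 51.6% of all clusters above bioB were lower and their median was -0.0043. The exception was Cacna1b, at 0.00. Differences were -0.92 for Scn4b, -0.53 for Cacna2d3, -0.45 for Cacna1i, -0.39 for Cacng4 and -0.24 for Cacna1a, each within 2 standard errors of 0. This count rested largely on 1 array. YSR replicate 2 had the lowest mean of the 26 genes of all 24 arrays, 11.07, and was the lowest array for 10 of them, against means of 11.40 and 11.71 in YSR replicates 1 and 3 and 11.35 to 11.88 in CT rats. Without it 16 of the 26 were lower, with a median of -0.08. The same array had the highest choroid plexus score of the 24, 11.32, and with the 9 high-Kl arrays dropped, which leaves 1 YSR array, 11 of the 26 were lower. The medium spiny neuron markers moved along, with 11 of 11 lower in YSR than in CT rats (median -0.51, score 12.50 to 13.88 in YSR and 12.78 to 14.07 in CT rats), and their part in the direction was not tested.

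SR against YSR compared METH rats with saline rats on the same shock schedule and gave 6 of the 40 genes an unadjusted p under 0.05, 5 of them higher in SR rats, against 6.41% of all clusters (2.67% higher). None met the criterion, which 0.439% of all clusters met. Those higher in SR rats included Cacna2d2 (0.72), Cacng7 (0.47), Scn9a (0.39) and Cacng8 (0.33), and lower was Cacng6 (-0.25). Cacna2d2, an alpha2-delta gene (chr8:116154474-116285643), had lowest, median and highest signals of 9.24, 10.29 and 11.18 in CT, 10.03, 10.77 and 11.23 in SR and 10.22, 10.45 and 10.81 in SS rats. It was 10.26, 9.59 and 10.15 in YSR replicates 1 to 3 and 10.57, 10.08 and 10.45 in YSS replicates 1 to 3. In SR rats 5 of 6 arrays were above all YSR arrays, and SR replicate 1 was within their range (standard error of the difference 0.29, exact permutation p = 0.0595). The change was near the 1.7-fold limit and met the criterion without SR replicate 1 (0.86), YSR replicate 1 (0.85) or YSR replicate 3 (0.79). Cacng7, a TARP gene, was 12.42 ± 0.35 in CT, 12.67 ± 0.42 in SR, 12.40 ± 0.16 in SS, 12.19 ± 0.18 in YSR and 12.45 ± 0.17 in YSS rats.

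Cacng6, the relative of the skeletal muscle gamma gene (chr1:64308150-64321044), was the 1 gene of the 6 that was lower in SR rats. It had lowest, median and highest signals of 4.89, 5.11 and 5.26 in CT, 4.84, 4.98 and 5.15 in SR and 4.85, 4.98 and 5.20 in SS rats. It was 5.21, 5.22 and 5.28 in YSR replicates 1 to 3 and 5.04, 5.10 and 5.14 in YSS replicates 1 to 3. All SR arrays lay under all YSR arrays (difference -0.25, standard error 0.09, exact permutation p = 0.0238), at signals near the array medians. Scn9a and Cacng6 were the 2 genes without overlap in SR against YSR, against 2.90% of all clusters. As in YSR against CT, the direction was one-sided, with 25 of the 26 genes above bioB higher in SR than in YSR rats (median 0.24, Cacnb4 being the exception), where 43.9% of all clusters above bioB were higher. Both comparisons use the same 3 YSR arrays. Without YSR replicate 2 the count was 20 of 26 (median 0.07), and with the 9 high-Kl arrays dropped it was 14. In YSR against YSS 24 of 26 were lower in YSR rats (55.9% of all clusters above bioB), and 19 were without YSR replicate 2. Marker lists also moved in SR against YSR. Interneuron markers were higher in SR rats for 11 of 11 (4 at an unadjusted p under 0.05). Their score lay at 7.81 to 8.99 in SR and 7.55 to 8.56 in YSR rats. Choroid plexus markers were lower in SR rats for 12 of 12 (1 at an unadjusted p under 0.05, median -2.37). Medium spiny neuron markers were higher for 10 of 11 (1, median 0.21) and oligodendrocyte markers lower for 8 of 9 (0, median -0.16). Their part in these values was not tested.

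**Figure D5:**
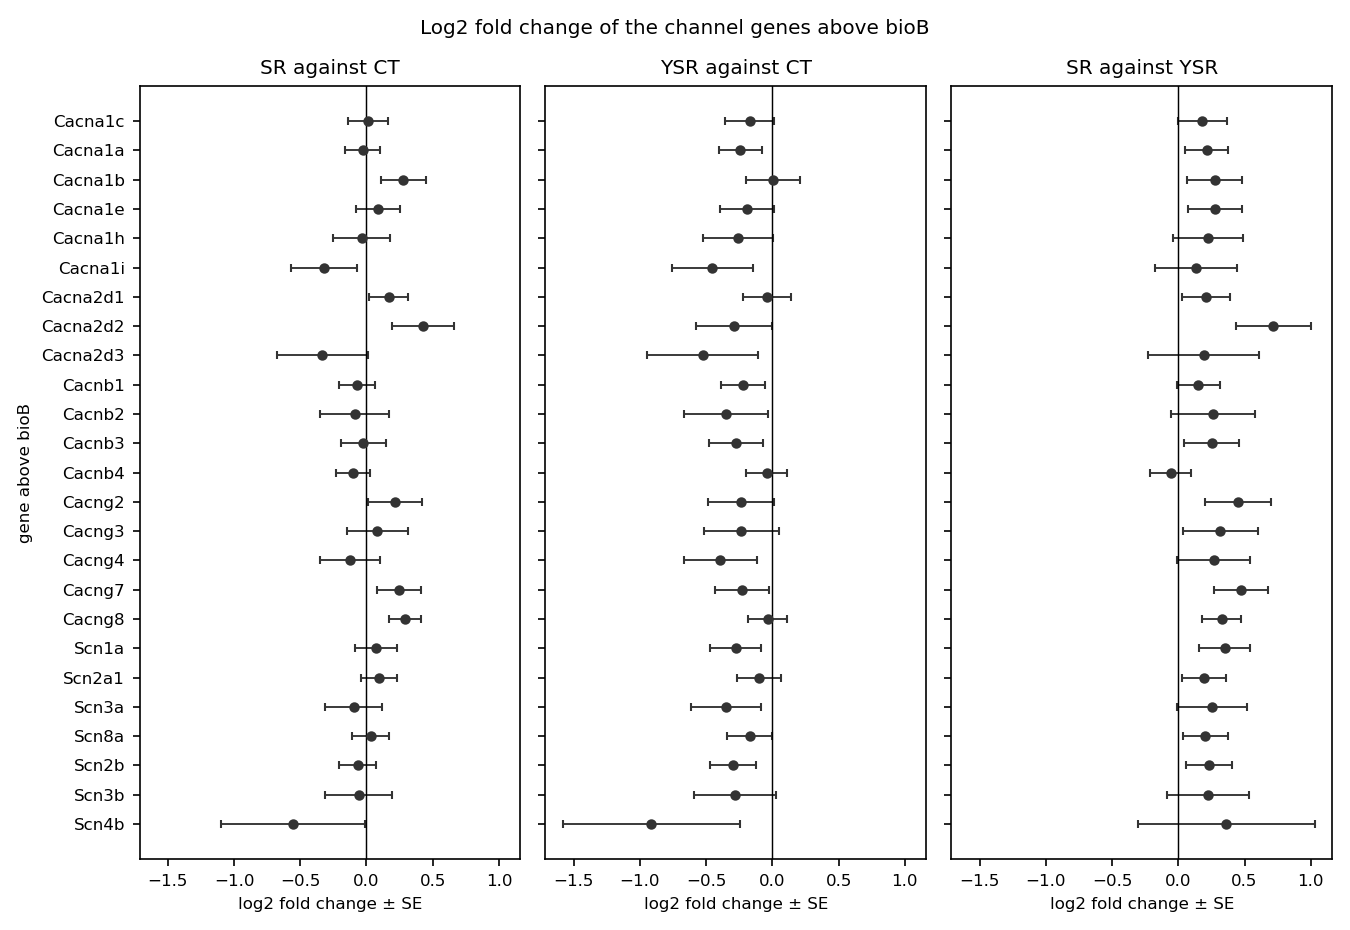
Log2 fold change with its standard error (points and bars) of 25 of the 26 channel genes above bioB in SR against CT, YSR against CT and SR against YSR. Points lie on both sides of 0 in SR against CT (12 higher, 13 lower), left of it in YSR against CT (24 of 25) and right of it in SR against YSR (24 of 25).

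In the other comparisons the 26 genes had no such common direction. Higher means were found for 13 of 26 in SR against CT (41.5% of all clusters above bioB) and 19 of 26 in SS against CT (63.5%). The counts were 9 of 26 in SR against SS (37.7%), 15 of 26 in YSS against CT (53.4%) and 14 of 26 in SS against YSS (56.4%). The interaction of METH and shock number, which uses the YSR arrays, was above 0 for 19 of 26 (40.4%). No channel gene passed a Benjamini-Hochberg adjusted p of 0.05 in any of the 8 comparisons, in limma's F test over the 5 groups or in the interaction of METH and shock number, and neither did any of the 68842 clusters (0 in each). The F test gave an unadjusted p under 0.05 to 3 of the 40, Cacng5 (0.0209) and Scn9a (0.0299) among them, against 5.03% of all clusters.

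Proteins that bind, anchor or modulate these channels were followed through a list of 30 partner genes, of which 29 were measured and 17 lay above bioB. In SR against CT 2 of the 29 had an unadjusted p under 0.05, both higher in SR rats, a share near the 5.41% of all clusters. They were Fgf12, which encodes an intracellular factor that binds the tail of sodium channels (0.46), and Ank2, an ankyrin gene (0.19). The same 2 genes had an unadjusted p under 0.05 in YSS against CT (0.58 and 0.29, with 5.16% of all clusters), and these comparisons share the CT arrays. In SR against YSR 3 of the 29 had an unadjusted p under 0.05 (6.41% of all clusters), all higher in SR rats. The 3 were Fgf11 (0.77), the sodium leak channel gene Nalcn (0.38) and the active zone gene Erc1 (0.20). A higher mean in SR rats was found for 23 of the 29, where 43.9% of all clusters above bioB were higher. YSR replicate 2 had the lowest mean of the 29 genes of all 24 arrays, 10.39, against 10.59 and 10.61 in YSR replicates 1 and 3. The count without this array was not taken. A single partner gene had an unadjusted p under 0.05 in SS against CT (the active zone gene Erc2, 0.40, with 5.17% of all clusters), in SS against YSS (the two-pore channel gene Tpcn1, 0.19, with 5.70%) and in YSR against YSS (Ank2, -0.29, with 6.05%). In SR against SS (3.56% of all clusters) and YSR against CT (4.13%) 0 of the 29 had an unadjusted p under 0.05. None met the criterion or passed the adjusted test, and the median difference over the 29 ran from -0.13 in YSR against YSS to 0.11 in SR against YSR.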

How the data were processed

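The authors summarized the arrays with Affymetrix Expression Console (per the labels, no version given), and the deposited values are log2 signals for 70580 rows, whose summarization algorithm is not given in the sources used here. A second deposited table gave symbols, coordinates (build not named) and the authors' own fold changes and p-values, which were not used.

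The 1738 control rows were left out. All 68842 clusters were fitted, since 14 channel genes lie under bioB, as 5 group means in limma 3.58.1 under R 4.3.3 (prior 3.787 and residual 19 degrees of freedom), with Benjamini-Hochberg adjustment over all clusters. An exact permutation test (two-sided) was added for each gene, and correlations with marker scores were tested by 100000 permutations within groups (two-sided). The criterion takes the study's limits on p and fold and leaves out its requirement of expression above bioB, which is an alternative. log2 fold changes are first group minus second. The fit and tests were checked on simulated data. The 40 genes and the lists were chosen with earlier results of these data known.

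Counts cover all 40 channel genes, but values of some are not reported here. Otherwise each was named, the best known ones and those with an unadjusted p under 0.05 were given by group, and those with the smallest p by array. Alternatives were quantile normalization, median centring, only clusters above bioB, a variance trend, no moderation, 2 groups only, a replicate block, other fold limits and leaving out each array. Those added after the values were seen left out the 9 arrays with Kl above bioB. The counts of direction in the comparisons that involve YSR rats were also added then. Precision is set by the number of rats, 3 to 6 a group. The labels do not say whether replicate numbers pair rats, such as yoked rats with their partners, and the main fit is unpaired. Python 3.11.15, numpy 2.4.6, pandas 2.3.3 and matplotlib 3.10.9 were used.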

Additional observations from a re-analysis of the deposited data

Results flagged for a closer look

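Among 120 groups of 6 rats (40 genes in CT, SR and SS rats), 5 held an array far from its nearest neighbour by Dixon's test, and chance flags about 1 in 20 groups. Cacna1b was lowest in CT replicate 6 at 9.20, against 9.69 for the next array. Cacnb4 was highest in CT replicate 5 at 12.41, against 12.21. Cacng3 was lowest in CT replicate 2 at 13.50, against 14.28, and Scn4a lowest in SS replicate 6 at 5.32, against 5.42. Cacng5 was lowest in SR replicate 1 at 7.41, against 8.53.

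The difference between SR and YSR rats was set against that between SS and YSS rats in the interaction of the limma fit. Of the 40 genes 4 had an unadjusted p under 0.05 there, against 5.16% of all clusters, and none passed after adjustment (adjusted p = 0.95 for each). The interaction was 1.47 for Cacng5 (unadjusted p = 0.0139), where SR rats were 0.70 above YSR rats and SS rats 0.77 below YSS rats (-0.77). By limma it was 0.51 for Scn9a (unadjusted p = 0.00818, adjusted p = 0.95) and 0.43 for Cacng8 (0.0466 and 0.95).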

How the results depend on the processing

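Precision is limited by 3 to 6 rats a group, and Cacng5, Scn9a and Cacng6 lie at low signal. In the fit of clusters above bioB only, which leaves out Cacng5, the counts at the criterion were 0 in SR against CT, 0 in YSS against CT and 0 in YSR against YSS, and those of the F test and the interaction 0 and 0. At 1.5-fold, YSR against YSS had 2 genes and SR against YSR 1, and at 2-fold SR against CT had 0. Fits of 2 groups only gave 1 gene in SS against YSS. The share of all clusters was not counted at these fold limits or in these fits, so the counts describe only how the calls moved. Quantile normalization, median centring, a variance trend and no moderation kept every count within 1.5 times. Averaging several clusters of a gene was not run, as each gene had 1.

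Without the 9 arrays with Kl above bioB, the criterion was met by 4 genes in SR against SS, 2 in SR against YSR and 2 in SS against YSS, the F test gave 5 and the interaction 12, and 0 genes followed the cortical score. Of the 26 genes above bioB, 11 were then lower in YSR than in CT and 14 higher in SR than in YSR rats. This setting leaves 1 YSR array, so the directions rest on that array. The cause was not tested.

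With the replicate number as a block, Cacng5 was 0.79 above CT in SR and 1.22 in YSS rats, and it changed no call. Same-numbered arrays were not generally alike (39 pairs, residual correlations -0.687 to 0.642, median -0.115, with 6 of 24 arrays closest to their own number). This cannot tell whether their rats were yoked partners.

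Leaving out 1 array gave criterion counts from 0 to 1 in SR against CT, 0 to 3 in SR against YSR, 0 to 1 in SS against YSS, 0 to 2 in YSR against CT, 0 to 3 in YSR against YSS and 1 to 2 in YSS against CT. The share of all clusters past the limits was not counted in any fit with an array left out. The higher counts came without YSR replicate 1 (3 in SR against YSR, 3 in YSR against YSS and 1 in SS against YSS), YSR replicate 3 (2 in YSR against CT and 1 in SR against YSR), SR replicate 1 (2 in SR against YSR, 1 in SS against YSS), SS replicate 3 (1 in SS against YSS) and CT replicate 1, CT replicate 3 or YSS replicate 1 (2 in YSS against CT). The F test gave 1 to 5 genes (1 without SR replicate 2, SR replicate 5 or YSR replicate 2, and 5 without YSR replicate 1) and the interaction 2 to 7 (2 without YSR replicate 2, 7 without SR replicate 1). Genes above bioB lower in YSR than in CT rats numbered 16 to 26, the 16 without YSR replicate 2. The cortical score was followed by 4 to 10 genes, 4 without CT replicate 5, SS replicate 1 or SS replicate 4, and the MSN score by 14 to 18.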
